A study of Mus musculus with 24 samples.

Results

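A set of 68 genes stood higher in mouse neutrophils treated with IL4 and with IGF1 and lower in neutrophils treated with LPS/IFNγ than in untreated neutrophils. The genes were selected on these same values, out of 48709 genes in the deposited tables. A member had a group mean of log2(RPKM + 0.1) at least 0.4 above the untreated mean with IL4 and with IGF1, and at least 0.4 below it with LPS/IFNγ. RPKM is a read number divided by exon length and by library depth. The lowest IL4 and the lowest IGF1 library had to lie above the highest untreated one, the highest LPS/IFNγ library below the lowest untreated one, and the untreated mean had to reach 0.5 RPKM. Chil3 was left out. Of the 10487 genes at this level, 240 met the IL4 and IGF1 side of the rule. Of these, 68 also met the LPS/IFNγ side, 64 met its mirror image and were higher with LPS/IFNγ, and 108 met neither. The members thus made up 28.3% of the genes raised by IL4 and IGF1, and the LPS/IFNγ side alone was met by 29.8% of all 10487 genes. The share of genes lowered by LPS/IFNγ was therefore near that among all genes.

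The cells were neutrophils that had been isolated from bone marrow of C57Bl/6J mice by Percoll density gradient and cultured for 4 hours. Cells received LPS at 10 ng/mL with IFNγ at 2 ng/mL, IL4 at 20 ng/mL, IGF1 at 10 ng/mL, insulin at 10 ng/mL or insulin at 100 ng/mL, or were left untreated. Each of the 6 groups held 4 libraries, and the 4 libraries of a group carried the numbers 6, 9, 10 and 11, here called preparations. Values of a group are given in that order. No deletion or transgene was part of the design, and the cells were studied after a few hours outside the animal, as a mixed bulk population.

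IL4 signals through its receptor and JAK kinases to the transcription factor STAT6, and in macrophages it opposes the program that interferon γ and bacterial lipopolysaccharide set in motion. Lipopolysaccharide acts through TLR4 and NF-κB. IGF1 and insulin bind related receptor tyrosine kinases. In neutrophils, whose life is short and whose RNA content is low, such signals alter receptors, adhesion molecules and the handling of metabolites within hours.

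The RPKM values gave back 18748631 to 30925205 mapped reads per library (median 23305913), with the lowest and the highest total both in the LPS/IFNγ group, and 76.6% to 78% of the low values of a library came out as whole reads within 0.01 of a read at the GENCODE M21 exon lengths. The summed RPKM of 12 neutrophil markers was 90327 to 108820 with LPS/IFNγ, 96402 to 117880 with IL4, 96027 to 123650 with IGF1 and 106770 to 120700 in untreated cells, with no marker at 0. Markers of erythroid cells summed to 602 to 6175 RPKM, and the level followed the preparation: the 6 libraries of preparation 9 held 4600 to 6175 RPKM and those of preparation 11 held 602 to 688 RPKM. Of the 10 erythroid, 10 B lineage and 10 proliferating precursor markers, none was called in any comparison with untreated cells. Of the 12 neutrophil markers, 2 were called lower with LPS/IFNγ, 1 higher with IL4 and 1 higher with IGF1 (list medians -0.41, -0.08 and -0.05). The 9 eosinophil markers summed to 1645 to 2808 RPKM over all libraries, and 1 was called lower with LPS/IFNγ. Some marker sums moved with treatment. With LPS/IFNγ the basophil and mast cell markers summed to 257 to 336 RPKM, against 67.1 to 101 RPKM in untreated cells, and the dendritic cell markers to 24.1 to 34.6 RPKM, against 5.94 to 7.19 RPKM. The T and NK cell markers summed to 9.09 to 17.3 RPKM with LPS/IFNγ, 20.4 to 28.3 RPKM with IL4 and 20.8 to 27.5 RPKM with IGF1, against 14.7 to 21.2 RPKM in untreated cells. Abundant markers weigh most in a sum. With LPS/IFNγ, 1 of 8 basophil and mast cell markers was called higher (list median 0.19), and 3 of 7 dendritic cell markers higher and 1 lower (0.29). Of 10 T and NK cell markers, 2 were lower with LPS/IFNγ, 3 higher with IL4 and 2 higher with IGF1 (medians -0.42, -0.18 and -0.21). Of 11 monocyte and macrophage markers, 4 were lower and 1 higher with LPS/IFNγ (-0.62). No marker of any list was at 0 in all 4 libraries of a group, none was a member of the set, and the part of other cells in the values of the members was not tested.

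Over the 68 members the median change from untreated was -0.94 with LPS/IFNγ (range -4.06 to -0.40), 0.79 with IL4 (0.43 to 3.90) and 0.80 with IGF1 (0.41 to 3.82), all on the log2(RPKM + 0.1) scale. Over all 10487 genes the medians were -0.25, 0.02 and 0.02. Since the rule fixed the direction, these values describe the set and test nothing. In bulk RNA, fewer cells of a type and less RNA per cell cannot be told apart. In the RPKM as deposited, the fall with LPS/IFNγ was the larger arm in 42 members and the smaller one in 24. This order depends on how libraries are scaled. After median-of-ratios scaling, which sets the median gene to no change, the members' medians were -0.70 with LPS/IFNγ, 0.75 with IL4 and 0.76 with IGF1. Members covered a wide range of abundance, with untreated means between 0.532 and 138 RPKM (median 7.51), and 31 of 68 had at least 10 RPKM. Moderated linear models (limma, 4 against 4 libraries on log2(RPKM + 0.1)) called a gene at least 1.5-fold changed with a Benjamini-Hochberg adjusted p under 0.05. They called 53 members lower with LPS/IFNγ (17.8% of 13062 genes tested were called lower), 38 higher with IL4 (1.62% of 13097) and 39 higher with IGF1 (1.57% of 13093). These are the contrasts that chose the members, and nothing is read from the counts. Without the IL4 library of preparation 9, 25 members and 117 of 12907 genes were called higher with IL4.

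**Figure D1:**
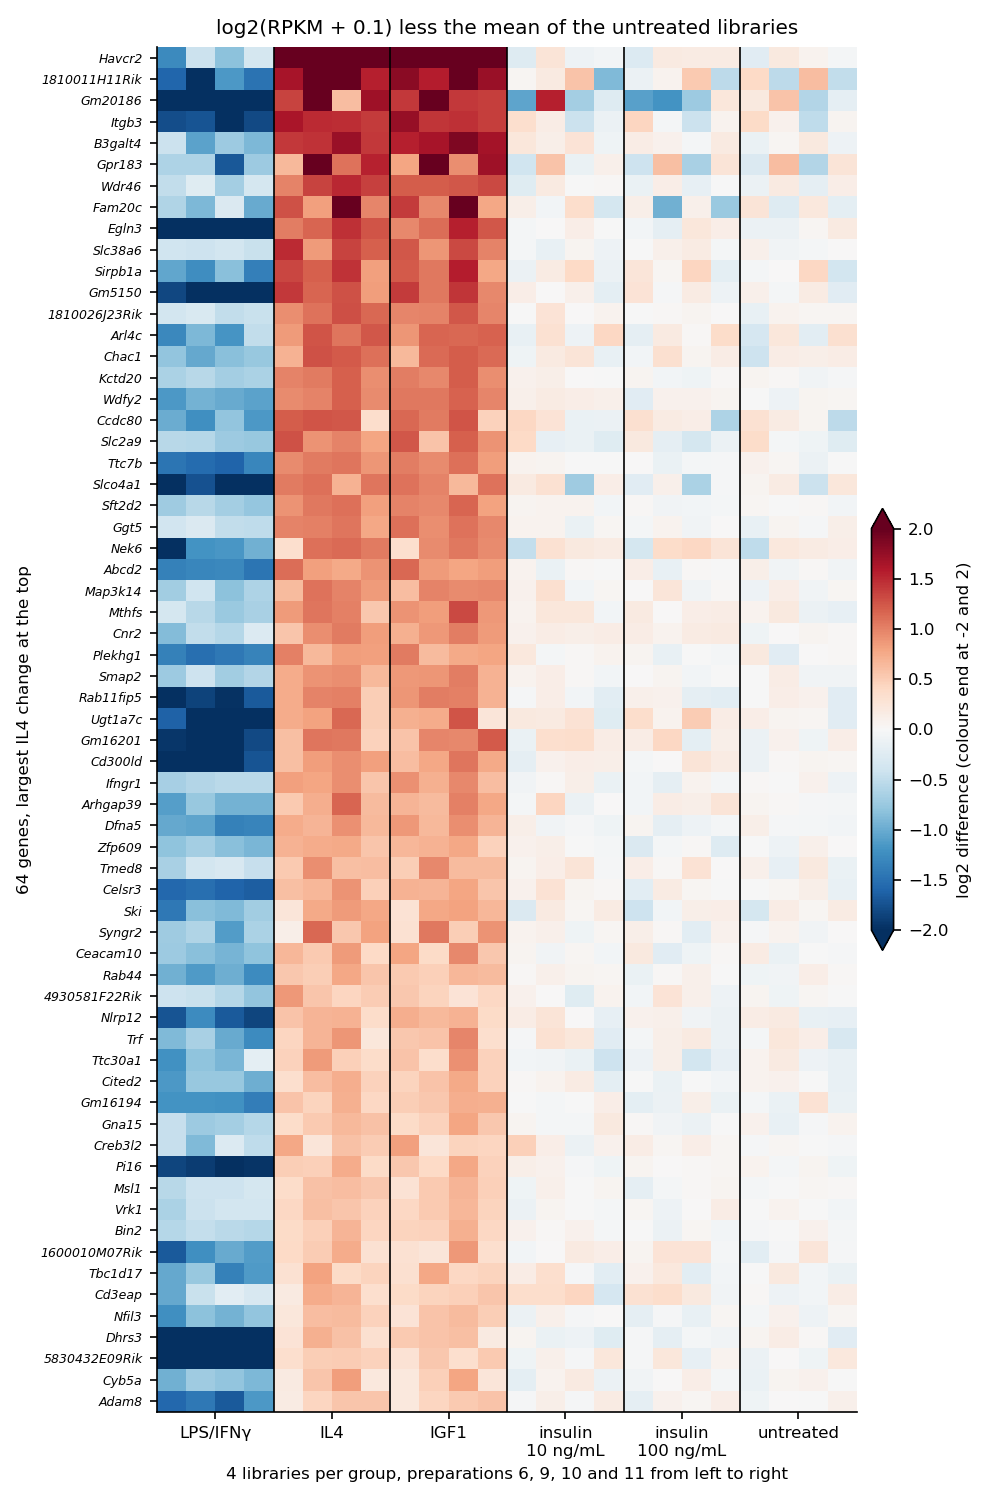
Each row is 1 of 64 of the 68 genes and each column 1 of 24 libraries, coloured by log2(RPKM + 0.1) less the mean of the 4 untreated libraries (colours end at -2 and 2). The LPS/IFNγ columns are blue and the IL4 and IGF1 columns red throughout, as the rule requires, while the 8 insulin columns, which the rule did not use, are pale except in a few genes such as Gm20186.

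Surface receptors and proteins listed with them made up the first group of members. Havcr2 encodes TIM-3, an inhibitory receptor of T cells and myeloid cells, and had the largest change with IL4 of the 68. It lies on chromosome 11 at 46454935 to 46481255 (GRCm38, plus strand). Havcr2 had 0.161, 0.367, 0.255 and 0.392 RPKM with LPS/IFNγ, 9.48, 9.55, 11.04 and 7.36 RPKM with IL4 and 9.97, 8.32, 10.2 and 7.002 RPKM with IGF1, against 0.436, 0.621, 0.558 and 0.514 RPKM in untreated cells. Mean expression was 9.36 ± 1.51 RPKM with IL4 and 8.88 ± 1.51 RPKM with IGF1, against 0.532 ± 0.0778 RPKM in untreated cells (SD, n = 4 each). The IL4 and IGF1 libraries lay far above all others, whereas the highest LPS/IFNγ library and the lowest untreated one were close. At these levels the LPS/IFNγ libraries held few reads, with 11 in the library with the fewest.

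The promoter window of Havcr2, as RefSeq gives it for GRCm38.p6, is shown because this gene changed most with IL4. A GAGGAAGT sequence, the core bound by ETS factors such as PU.1, ends at the base before the transcript start and stands in capitals (chr11:46454893-46454960, plus strand).
Havcr2: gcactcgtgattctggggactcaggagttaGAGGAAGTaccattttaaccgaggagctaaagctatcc

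Itgb3, the integrin β3 subunit of the vitronectin receptor and of the platelet fibrinogen receptor, was far more abundant. Itgb3 had 4.48, 4.59, 2.93 and 4.35 RPKM with LPS/IFNγ, 48.3, 43.5, 43.3 and 41.1 RPKM with IL4 and 51.9, 41.95, 42.98 and 40.7 RPKM with IGF1, against 20.2, 16.4, 10.8 and 16 RPKM in untreated cells. The IL4 and IGF1 libraries lay above every untreated library and the LPS/IFNγ libraries below, as the rule requires of every member. Among untreated cells preparation 6 was highest and preparation 10 lowest. The 6 platelet and megakaryocyte markers, which do not include Itgb3, summed to 1.96 to 5.62 RPKM over all 24 libraries. The part of such cells in the level of Itgb3 was not tested.

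Gpr183, a receptor for oxysterols that positions B cells and dendritic cells in lymphoid tissue, also varied by preparation. Gpr183 had 1.33, 1.33, 0.5802 and 1.23 RPKM with LPS/IFNγ, 3.33, 9.26, 4.56 and 6.25 RPKM with IL4 and 3.71, 8.68, 4.08 and 7.03 RPKM with IGF1, against 1.69, 3.26, 1.37 and 2.54 RPKM in untreated cells. In each group but LPS/IFNγ preparation 9 was highest and preparation 11 next. The summed B lineage markers were also highest in preparation 9 and next in preparation 11, at 224 to 284 RPKM in preparation 9, 180 to 212 RPKM in preparation 11, 150 to 178 RPKM in preparation 6 and 94.04 to 126 RPKM in preparation 10, and their part in the level of Gpr183 was not tested. No B lineage marker was called with IL4, IGF1 or LPS/IFNγ.

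Cd300ld, an activating member of the CD300 receptor family of myeloid cells, was 1 of the 10 members with the lowest LPS/IFNγ change. Cd300ld had 8.36, 11.2, 10.3 and 14.8 RPKM with LPS/IFNγ, 74.1, 87.5, 93.4 and 86.3 RPKM with IL4 and 75.6, 84.2, 103 and 82.7 RPKM with IGF1, against 45.1, 49.7, 50.9 and 50.6 RPKM in untreated cells. The LPS/IFNγ libraries were far below the untreated ones, and preparation 6 was the lowest of the IL4, IGF1 and untreated libraries.

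Sirpb1a, a signal-regulatory protein of the β type, and Gm5150, an unnamed coding gene, lie 520.3 kb apart on the minus strand of chromosome 3. Gm5150 had 7.17, 5.27, 5.496 and 4.77 RPKM with LPS/IFNγ, 68.5, 57.6, 62.1 and 45.9 RPKM with IL4 and 67.9, 53.2, 69.2 and 50.02 RPKM with IGF1, against 27.5, 25.1, 28.7 and 21.95 RPKM in untreated cells. Sirpb1a averaged 2.22 ± 0.381 RPKM with LPS/IFNγ, 11.5 ± 2.06 RPKM with IL4 and 11.3 ± 2.63 RPKM with IGF1, against 4.998 ± 1.18 RPKM in untreated cells (SD, n = 4 each). The changes with IL4 were 1.198 for Sirpb1a and 1.17 for Gm5150, and the change with LPS/IFNγ was larger for Gm5150 (-2.17) than for Sirpb1a (-1.12). Reads from such related genes may be shared between them, and the values of both are uncertain to that extent.

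The RefSeq promoter windows of both genes (GRCm38.p6) were 87.5% identical over 288 aligned positions, and 100 bases of each are shown. The rule fixed the direction of change of both genes, as of every member. Capitals mark GAAANNGAAA, a sequence like that bound by interferon regulatory factors, in both (chr3:15426565-15426664 and chr3:16006483-16006582, minus strand), and TTCNNNGAA, a STAT type sequence, which was found in Sirpb1a alone.
Sirpb1a: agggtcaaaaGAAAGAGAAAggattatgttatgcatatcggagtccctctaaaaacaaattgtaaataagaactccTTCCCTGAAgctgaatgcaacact
Gm5150: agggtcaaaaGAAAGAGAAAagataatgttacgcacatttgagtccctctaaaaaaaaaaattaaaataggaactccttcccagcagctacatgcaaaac

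Ceacam10, of the carcinoembryonic antigen family, and Adam8, a membrane metalloprotease of myeloid cells, were the most abundant members. Ceacam10 had 83.3, 77.3, 72.6 and 78.4 RPKM with LPS/IFNγ, 219, 197, 249 and 182 RPKM with IL4 and 237, 179.8, 267 and 200 RPKM with IGF1, against 154, 126, 137 and 135 RPKM in untreated cells. Adam8 had 42.6, 46.5, 39.3 and 56.6 RPKM with LPS/IFNγ, 142, 170.1, 185 and 185 RPKM with IL4 and 146, 169.8, 181 and 186 RPKM with IGF1, against 118, 126, 125 and 136 RPKM in untreated cells. The IL4 and IGF1 libraries of Adam8 lay only just above the untreated ones, and its IL4 change of 0.43 was the smallest among members. The gene next outside the IL4 threshold, Cfp, changed by 0.34.

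Other members of this group were Cnr2, the CB2 cannabinoid receptor, and Ifngr1, the ligand-binding chain of the interferon γ receptor. Celsr3, an atypical cadherin, and Pi16, a peptidase inhibitor, were placed here as well. Ifngr1 and Cnr2 are given with values for their function, chosen after their values were seen. Ifngr1 averaged 25.7 ± 1.01 RPKM with LPS/IFNγ, 66.1 ± 7.09 RPKM with IL4 and 67.3 ± 7.47 RPKM with IGF1, against 38.4 ± 2.09 RPKM in untreated cells (SD, n = 4 each). Its LPS/IFNγ change was -0.58, short of the 1.5-fold limit of a call, and -0.33 after median-of-ratios scaling, where it no longer met the rule. 1810011H11Rik, now named Tmem273, encodes a transmembrane protein and had the second largest IL4 change. 1810011H11Rik had 0.217, 0.118, 0.326 and 0.241 RPKM with LPS/IFNγ, 2.86, 4.11, 5.501 and 2.69 RPKM with IL4 and 3.23, 2.72, 5.77 and 3.03 RPKM with IGF1, against 1.15, 0.561, 1.36 and 0.576 RPKM in untreated cells. Its untreated libraries fell into a lower pair (preparations 9 and 11) and a higher pair (preparations 6 and 10). The IL4 and IGF1 libraries were above both, as the rule requires.

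**Figure D2:**
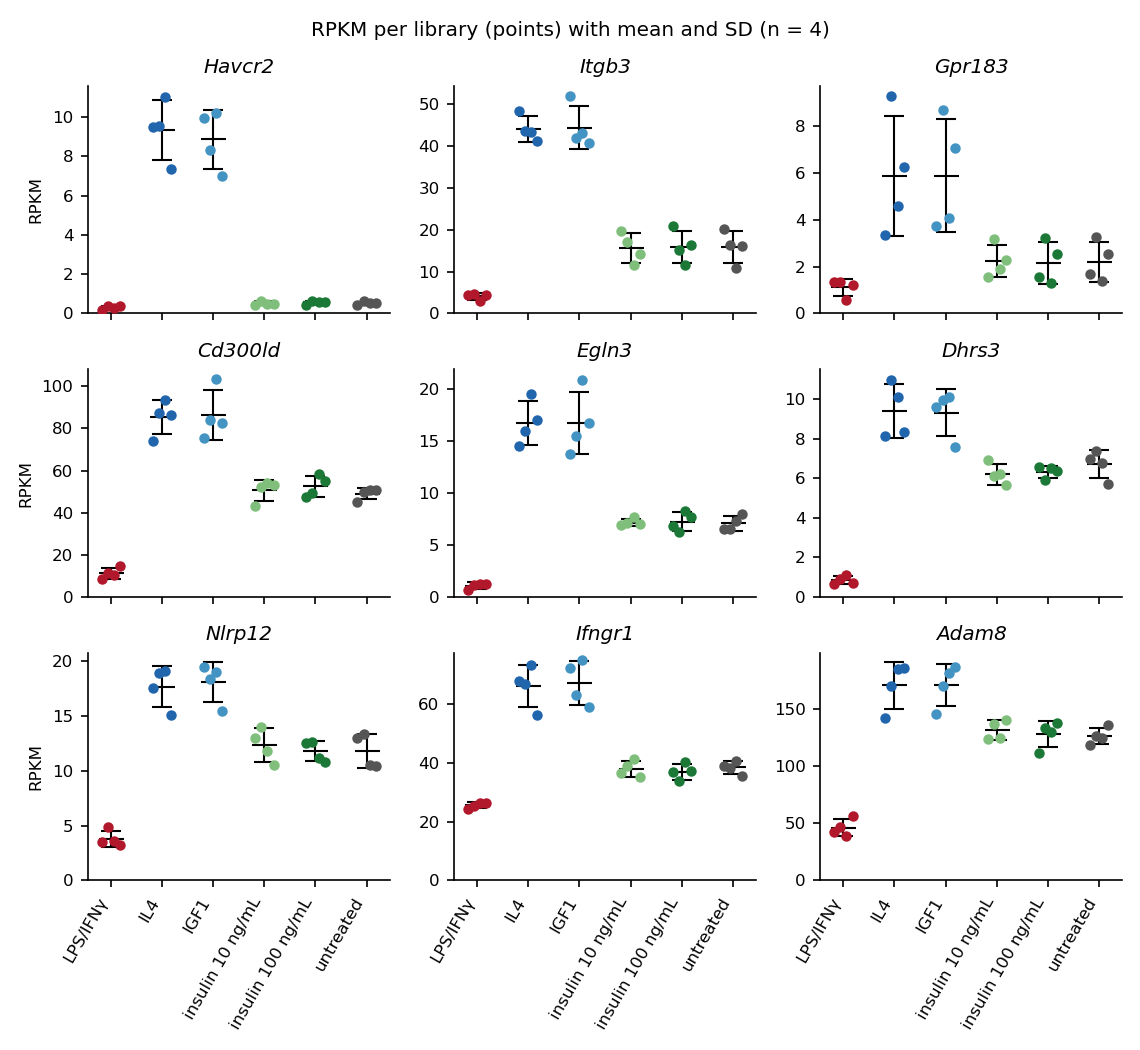
RPKM of 9 members in each library (points; 4 per group, preparations 6, 9, 10 and 11 from left to right), with the mean and SD of the group in black; every axis starts at 0. In Havcr2 the IL4 and IGF1 libraries stand far above all others, and in Gpr183 preparation 9 is highest and preparation 11 next in every group other than LPS/IFNγ.

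Enzymes and transporters formed a second group. Egln3 encodes PHD3, an oxygen-dependent prolyl hydroxylase that marks the hypoxia-inducible factors for degradation. Egln3 had 0.645, 1.19, 1.28 and 1.26 RPKM with LPS/IFNγ, 14.5, 15.96, 19.5 and 17.04 RPKM with IL4 and 13.8, 15.5, 20.8 and 16.8 RPKM with IGF1, against 6.51, 6.49, 7.26 and 8.01 RPKM in untreated cells. LPS/IFNγ libraries held 1.28 RPKM at most, and the gene was among the 10 largest in both arms. Dhrs3, which reduces retinal to retinol, had the lowest LPS/IFNγ change of all coding members, -2.85, next to a small IL4 change of 0.48. Dhrs3 had 0.682, 0.891, 1.13 and 0.718 RPKM with LPS/IFNγ, 8.13, 10.98, 10.1 and 8.36 RPKM with IL4 and 9.61, 9.96, 10.1 and 7.58 RPKM with IGF1, against 6.97, 7.38, 6.77 and 5.71 RPKM in untreated cells. The IL4 and IGF1 libraries overlapped each other and lay above the untreated ones, as the rule requires. The lowest IGF1 library and the highest untreated one were 7.58 and 7.38 RPKM.

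Slco4a1, an organic anion transporter, and Ugt1a7c, a UDP-glucuronosyltransferase, also had strong falls with LPS/IFNγ. Slco4a1 had 2.69, 3.496, 1.92 and 2.46 RPKM with LPS/IFNγ, 24.7, 25.7, 19.4 and 25.2 RPKM with IL4 and 25.4, 23.9, 18.8 and 25.4 RPKM with IGF1, against 12.4, 13.3, 8.84 and 13.9 RPKM in untreated cells. Preparation 10 was lowest in each of the 6 groups. Ugt1a7c had 2.46, 1.48, 1.66 and 1.096 RPKM with LPS/IFNγ, 13.02, 13.7, 17.2 and 10.9 RPKM with IL4 and 12.7, 13.02, 18.7 and 9.15 RPKM with IGF1, against 8.53, 8.005, 7.96 and 6.59 RPKM in untreated cells. Ugt1a7c shares its last exons with other Ugt1a genes, and 4 of these (Ugt1a6a, Ugt1a6b, Ugt1a1 and Ugt1a2) had untreated means of 0.641 to 1.43 RPKM, so its reads cannot be assigned to 1 gene with certainty.

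Several members act on glutathione, amino acids and other small molecules. Ggt5, a γ-glutamyl transferase that cleaves glutathione conjugates such as leukotriene C4, lay just inside the LPS/IFNγ threshold. Ggt5 had 5.43, 5.82, 5.05 and 4.998 RPKM with LPS/IFNγ, 14.4, 14.4, 15.1 and 12.3 RPKM with IL4 and 15.4, 13.7, 15.3 and 13.97 RPKM with IGF1, against 6.47, 7.46, 7.02 and 7.73 RPKM in untreated cells. Slc38a6, of a family of amino acid transporters, lay just inside it as well. Slc38a6 had 0.615, 0.609, 0.6305 and 0.59 RPKM with LPS/IFNγ, 2.54, 1.59, 2.29 and 2.06 RPKM with IL4 and 2.13, 1.63, 2.25 and 1.78 RPKM with IGF1, against 0.909, 0.796, 0.816 and 0.845 RPKM in untreated cells. Ggt5 changed by -0.42 with LPS/IFNγ and 0.96 with IL4, and Slc38a6 by -0.40 and 1.22, so in both the IL4 arm was the larger one. Chac1, which degrades glutathione, Mthfs, of folate metabolism, and Slc2a9, a urate transporter, changed by -0.85 to -0.58 with LPS/IFNγ and by 0.87 to 1.07 with IL4.

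Cyb5a, cytochrome b5, was near the IL4 threshold. Cyb5a had 9.85, 11.8, 11.2 and 10.2 RPKM with LPS/IFNγ, 21.9, 28.3, 34.5 and 22.2 RPKM with IL4 and 22.3, 26.9, 33.2 and 22.8 RPKM with IGF1, against 17.5, 20.1, 20.5 and 19.1 RPKM in untreated cells. Abcd2, which carries fatty acids into peroxisomes, changed by -1.35 with LPS/IFNγ and 0.90 with IL4. Trf, the iron carrier transferrin, averaged 11.04 ± 1.94 RPKM with LPS/IFNγ, 31.5 ± 6.24 RPKM with IL4 and 32.6 ± 6.39 RPKM with IGF1, against 21.4 ± 3.399 RPKM in untreated cells (SD, n = 4 each). Its lowest IL4 library was only 1.00 times the highest untreated one.

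Fam20c is the Golgi kinase that phosphorylates secreted proteins, and B3galt4 a galactosyltransferase of ganglioside synthesis. Fam20c had 0.416, 0.319, 0.543 and 0.291 RPKM with LPS/IFNγ, 1.78, 1.28, 3.26 and 1.44 RPKM with IL4 and 1.97, 1.42, 3.46 and 1.23 RPKM with IGF1, against 0.832, 0.552, 0.804 and 0.582 RPKM in untreated cells. B3galt4 had 1.399, 0.859, 1.12 and 0.989 RPKM with LPS/IFNγ, 5.31, 5.42, 6.57 and 5.29 RPKM with IL4 and 5.82, 6.24, 7.25 and 6.31 RPKM with IGF1, against 1.75, 1.99, 2.21 and 1.78 RPKM in untreated cells. B3galt4 (minus strand) and Wdr46 (plus strand), a nucleolar protein of ribosome assembly, end tail to tail 211 bases apart on chromosome 17 between 33940660 and 33951488. Wdr46 had 2.34, 2.81, 2.05 and 2.61 RPKM with LPS/IFNγ, 6.78, 8.65, 9.72 and 8.83 RPKM with IL4 and 7.85, 7.88, 8.02 and 8.47 RPKM with IGF1, against 3.06, 3.78, 2.93 and 3.68 RPKM in untreated cells. The mean of B3galt4 was 2.92 times the untreated mean with IL4 and 3.31 times with IGF1, and that of Wdr46 2.52 and 2.39 times.

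Regulators of signalling and transcription formed a further group. Nlrp12, a cytosolic sensor that dampens NF-κB signalling in mice, is named after its values were seen. It averaged 3.79 ± 0.739 RPKM with LPS/IFNγ, 17.6 ± 1.84 RPKM with IL4 and 18.04 ± 1.81 RPKM with IGF1, against 11.8 ± 1.55 RPKM in untreated cells (SD, n = 4 each). Map3k14 (NIK), the kinase of the noncanonical NF-κB pathway, changed by 0.89 with IL4 and -0.63 with LPS/IFNγ. Gna15, a G protein α subunit of blood cells, changed by 0.53 and -0.61. Nek6 and Vrk1 are kinases of the dividing cell, and changed by 0.90 and 0.51 with IL4 and by -1.32 and -0.45 with LPS/IFNγ.

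Among nuclear members, Nfil3, a basic leucine zipper repressor, Cited2, a coregulator that competes with hypoxia-inducible factors for CBP and p300, Ski, a repressor of TGFβ signalling, Creb3l2, a membrane-bound transcription factor, and Zfp609 changed by 0.48 to 0.69 with IL4 and by -0.96 to -0.53 with LPS/IFNγ. Msl1, the scaffold of a histone H4 acetyltransferase complex, was abundant. Its exons overlap those of Casc3 on the same strand, which had 20.7 RPKM in untreated cells. Casc3 changed by -0.56 with LPS/IFNγ, 0.33 with IL4 and 0.31 with IGF1, and its part in the values of Msl1 was not tested. Msl1 had 60.9, 66.9, 67.1 and 69.9 RPKM with LPS/IFNγ, 116, 134, 137 and 129.7 RPKM with IL4 and 109, 128, 144 and 125 RPKM with IGF1, against 86.6, 88.7, 91.4 and 90.8 RPKM in untreated cells. Cd3eap, a subunit of RNA polymerase I, changed by 0.48 with IL4 and -0.50 with LPS/IFNγ.

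Vesicle traffic and the cytoskeleton supplied another group. Rab11fip5, an effector of RAB11 in recycling endosomes, had the largest fall of these. Rab11fip5 had 0.326, 0.568, 0.514 and 0.649 RPKM with LPS/IFNγ, 3.93, 4.67, 4.74 and 3.27 RPKM with IL4 and 4.34, 4.81, 4.73 and 3.79 RPKM with IGF1, against 2.29, 2.55, 2.47 and 1.97 RPKM in untreated cells. Smap2 activates the GTPase of ARF proteins, and Bin2 is a membrane-bending BAR protein of blood cells. Smap2 had 49.4, 61.3, 50.3 and 54.2 RPKM with LPS/IFNγ, 136, 152, 155 and 128 RPKM with IL4 and 149, 151, 166 and 132 RPKM with IGF1, against 80.9, 90.3, 77.1 and 77.8 RPKM in untreated cells. Bin2 had 75.3, 80.3, 76.5 and 75.1 RPKM with LPS/IFNγ, 145, 156, 178 and 150.3 RPKM with IL4 and 151, 154, 182 and 149 RPKM with IGF1, against 109, 110.3, 118 and 108 RPKM in untreated cells. Both were among the 6 most abundant members. Kctd20, of the potassium channel tetramerisation domain family, was abundant too. Kctd20 had 47.4, 49.9, 46.02 and 47.5 RPKM with LPS/IFNγ, 147, 151, 168 and 141 RPKM with IL4 and 149, 144, 170.3 and 139.9 RPKM with IGF1, against 76.7, 75.1, 70.3 and 72.1 RPKM in untreated cells. Preparation 10 was the highest IL4 and IGF1 library in all 3 of these genes.

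Arl4c (a small GTPase), Wdfy2 (an endosomal FYVE protein), Sft2d2 and Tmed8 (transport vesicles), Rab44 (a RAB GTPase), Tbc1d17 (a RAB GTPase activator), Syngr2 (a vesicle protein), Plekhg1 and Arhgap39 (regulators of small GTPases) and Ttc7b (an adaptor of phosphatidylinositol 4-kinase) changed by 0.49 to 1.11 with IL4 and by -1.48 to -0.45 with LPS/IFNγ. Kctd20, Rab44 and Pi16 lie on the plus strand of chromosome 17 between 28951950 and 29330593, with gaps of 144.6 and 168.7 kb. Rab44 changed by 0.59 with IL4, Pi16 by 0.53 and Kctd20 by 1.04. Ttc30a1, of intraflagellar transport, was low. Ttc30a1 had 0.204, 0.304, 0.272 and 0.513 RPKM with LPS/IFNγ, 0.869, 1.17, 0.877 and 0.8096 RPKM with IL4 and 0.951, 0.7996, 1.23 and 0.8701 RPKM with IGF1, against 0.638, 0.697, 0.558 and 0.536 RPKM in untreated cells. Dfna5, now Gsdme, the pore-forming gasdermin E, changed by 0.75 with IL4 and -1.19 with LPS/IFNγ, and Ccdc80, a secreted protein, by 1.02 and -1.04.

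The last group held genes without a translated product or without a name. By biotype 62 members were protein coding and 5 were not, and Gm16194 was not matched to the annotation. Gm16194 averaged 11.4 ± 0.698 RPKM with LPS/IFNγ, 39.4 ± 3.73 RPKM with IL4 and 41.7 ± 3.29 RPKM with IGF1, against 27.3 ± 3.96 RPKM in untreated cells (SD, n = 4 each). Gm20186, a long noncoding RNA on chromosome 6, had the lowest LPS/IFNγ change of all, -4.06. Gm20186 had 0.2997, 0.466, 0 and 0.104 RPKM with LPS/IFNγ, 11, 22.3, 6.56 and 13.9 RPKM with IL4 and 11.4, 17.2, 11.5 and 11.2 RPKM with IGF1, against 4.896, 6.33, 2.79 and 3.73 RPKM in untreated cells. One LPS/IFNγ library was listed at 0, and the insulin library of preparation 9 at 10 ng/mL held 12.6 RPKM, above all untreated libraries. Gm26809, on the other strand with overlapping exons, averaged 44.4 RPKM with LPS/IFNγ, 26.2 RPKM with IL4 and 26.3 RPKM with IGF1, against 22.2 RPKM in untreated cells.

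5830432E09Rik, of the antisense biotype, overlaps exons of Ptpre, a receptor-type phosphatase, on the other strand. 5830432E09Rik had 0.744, 0.861, 0.681 and 1.03 RPKM with LPS/IFNγ, 5.85, 6.601, 6.62 and 6.43 RPKM with IL4 and 5.73, 6.82, 5.88 and 6.73 RPKM with IGF1, against 4.26, 4.65, 4.37 and 5.37 RPKM in untreated cells. Ptpre itself changed by -0.92 with LPS/IFNγ, 0.13 with IL4 and 0.15 with IGF1, so the antisense gene moved more than its partner in both directions. 4930581F22Rik overlaps St3gal4 on the other strand, which averaged 18.6 RPKM with LPS/IFNγ, 22.4 RPKM with IL4 and 23.3 RPKM with IGF1, against 13.7 RPKM in untreated cells. St3gal4 changed by 0.70 with IL4 and 0.76 with IGF1, next to 0.59 and 0.41 in 4930581F22Rik, and its part in those values was not tested. 4930581F22Rik had 4.29, 4.21, 3.82 and 3.297 RPKM with LPS/IFNγ, 10.5, 8.47, 7.76 and 8.23 RPKM with IL4 and 8.38, 7.82, 6.93 and 7.699 RPKM with IGF1, against 5.97, 5.39, 5.895 and 5.74 RPKM in untreated cells. Gm16201 overlaps the end of Adam8 on the other strand. Gm16201 had 0.09202, 0.0501, 0.0615 and 0.112 RPKM with LPS/IFNγ, 1.02, 1.46, 1.44 and 0.914 RPKM with IL4 and 0.995, 1.35, 1.34 and 1.64 RPKM with IGF1, against 0.579, 0.682, 0.599 and 0.709 RPKM in untreated cells. Adam8 was far more abundant, and both changed in the same directions. 6430531B16Rik also overlaps exons of Gm16201 on the other strand, and averaged 0.68 RPKM in untreated cells. It changed by -1.90 with LPS/IFNγ, 0.20 with IL4 and 0.42 with IGF1, and its part in the values of Gm16201 was not tested.

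The library kit kept strand according to the methods. Whether the counting used strand could not be learned from the labels or methods, and without that reads of overlapping genes cannot be told apart. Tbc1d17 overlaps Il4i1, an amino acid oxidase induced by IL4, on the other strand. Il4i1 averaged 0.459 RPKM with LPS/IFNγ, 8.71 RPKM with IL4 and 8.47 RPKM with IGF1, against 0.733 RPKM in untreated cells, and Tbc1d17 averaged 3.39 RPKM with IL4 and 3.38 RPKM with IGF1, against 2.38 RPKM in untreated cells. Tbc1d17 also overlaps exons of Akt1s1 on the other strand, which averaged 4.398 RPKM in untreated cells. Akt1s1 changed by -0.92 with LPS/IFNγ, 0.07 with IL4 and 0.14 with IGF1, next to -1.07 with LPS/IFNγ in Tbc1d17. The part of Il4i1 and of Akt1s1 in the values of Tbc1d17 was not tested. 1810026J23Rik, now Timm29, a subunit of the mitochondrial inner membrane import machinery, overlaps Yipf2. 1810026J23Rik had 4.82, 5.06, 4.41 and 4.56 RPKM with LPS/IFNγ, 12.1, 13.4, 15.5 and 13.9 RPKM with IL4 and 12.5, 12.6, 14.99 and 12.4 RPKM with IGF1, against 5.63, 6.601, 6.44 and 6.41 RPKM in untreated cells. Yipf2 averaged 1.65 RPKM with LPS/IFNγ, 2.26 RPKM with IL4 and 2.51 RPKM with IGF1, against 1.84 RPKM in untreated cells. 1600010M07Rik, of the antisense biotype, overlaps the spans of Ipo7, Zfp143 and Wee1 on the other strand, but none of their exons. It changed by 0.49 with IL4 and -1.26 with LPS/IFNγ.

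**Figure D3:**
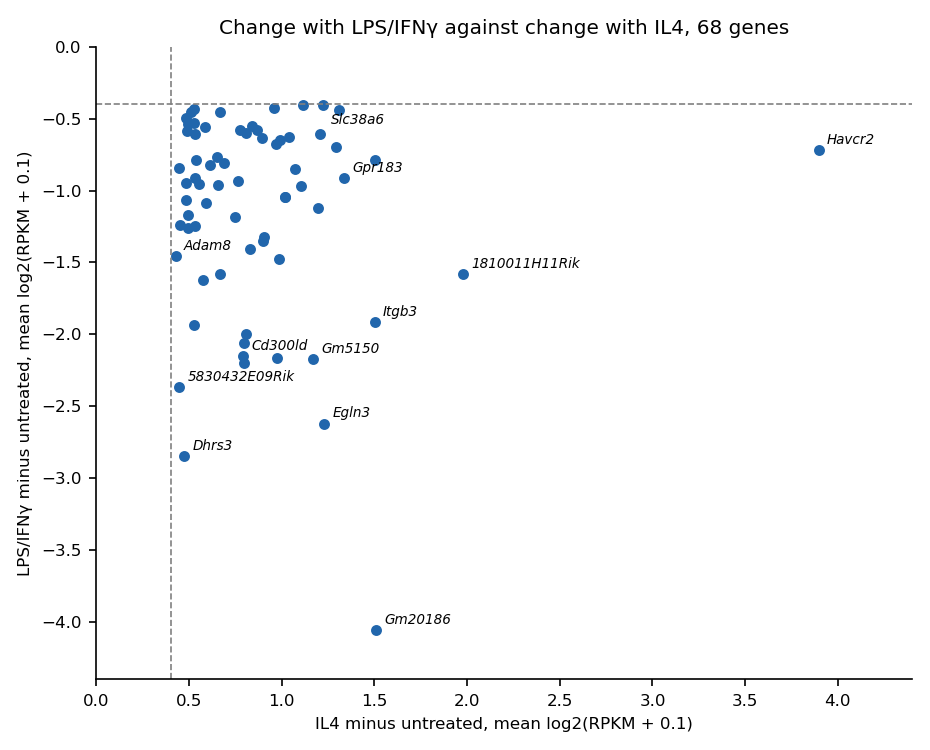
Each point is 1 of the 68 genes, placed by its mean change from untreated with IL4 (horizontal axis) and with LPS/IFNγ (vertical axis), both in log2(RPKM + 0.1). Dashed lines are the thresholds of the rule at 0.4 and -0.4. The genes do not lie on 1 line: Havcr2 pairs an IL4 change of 3.90 with an LPS/IFNγ change of -0.72, and Dhrs3 pairs 0.48 with -2.85.

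The rise and the fall were of unequal size within genes. A change of at least 1 with IL4 and with IGF1 was seen in 18 members, and a change of -1 or lower with LPS/IFNγ in 30. Both counts are from the RPKM as deposited, where the median change over all genes with LPS/IFNγ was -0.25. They are not compared with each other for that reason. Several members lay close to the limits of the rule. Just inside the IL4 threshold were Adam8 (0.43), Cyb5a (0.44) and 5830432E09Rik (0.45), and just inside the IGF1 threshold 4930581F22Rik (0.41) and 5830432E09Rik (0.42), while Smn1 (0.37) and Cbl (0.35) met all else but missed with IGF1. With LPS/IFNγ, 1810026J23Rik (-0.40), Slc38a6 (-0.40) and Ggt5 (-0.42) were just inside, and Tgfb1 (-0.40), Bcl2l13 (-0.40) and Tes (-0.39) just outside. Tes had 15.9, 14.8, 15.7 and 17.2 RPKM with LPS/IFNγ, 30.6, 36.1, 37.1 and 32.1 RPKM with IL4 and 33, 33.8, 40 and 33.3 RPKM with IGF1, against 20.6, 21.7, 20.2 and 20.8 RPKM in untreated cells. At the level threshold Havcr2 (0.532 RPKM untreated), Ttc30a1 (0.607) and Gm16201 (0.642) were inside, and Pknox2 (0.412), Pxt1 (0.385) and Slc16a14 (0.338) outside.

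The genes just outside met every other condition. Cfp encodes properdin of the complement system, Smn1 the survival motor neuron protein and Cbl a ubiquitin ligase of receptor tyrosine kinases. Cfp had 37.4, 30.9, 27.5 and 31.5 RPKM with LPS/IFNγ, 73.4, 74.1, 76.9 and 64.3 RPKM with IL4 and 83.7, 70.6, 76.8 and 71.5 RPKM with IGF1, against 63.5, 59.4, 49.4 and 55.6 RPKM in untreated cells. Smn1 had 4.7, 5.25, 5.02 and 4.78 RPKM with LPS/IFNγ, 8.9, 9.27, 10.9 and 9.2 RPKM with IL4 and 8.83, 7.79, 11.3 and 9.16 RPKM with IGF1, against 7.27, 6.38, 7.44 and 7.36 RPKM in untreated cells. Cbl had 49.8, 46, 52.3 and 45.5 RPKM with LPS/IFNγ, 89.1, 84.8, 102 and 90 RPKM with IL4 and 88.7, 83.4, 92.6 and 84 RPKM with IGF1, against 67.8, 58.7, 77.2 and 71.2 RPKM in untreated cells. In these 3 genes the LPS/IFNγ libraries lay below and the IL4 and IGF1 libraries above the untreated ones, the IL4 and IGF1 libraries overlapped each other, and only the size of 1 change was short. Tgfb1 had 31.9, 39.8, 34.1 and 40 RPKM with LPS/IFNγ, 51.1, 66.4, 76.6 and 63.4 RPKM with IL4 and 50.7, 66.6, 76.8 and 63.6 RPKM with IGF1, against 42.9, 49.9, 50.5 and 48.5 RPKM in untreated cells. Bcl2l13 had 3.84, 3.91, 3.38 and 3.66 RPKM with LPS/IFNγ, 9.43, 8.55, 10.5 and 8.27 RPKM with IL4 and 10.1, 8.6, 10.8 and 8.07 RPKM with IGF1, against 5, 4.96, 5.03 and 4.62 RPKM in untreated cells. Tgfb1 encodes the cytokine TGFβ1, and its IL4 and IGF1 libraries were nearly the same in each preparation. Pknox2 had 0.218, 0.294, 0.284 and 0.214 RPKM with LPS/IFNγ, 1.67, 1.16, 1.4 and 1.35 RPKM with IL4 and 1.56, 1.11, 1.46 and 1.59 RPKM with IGF1, against 0.434, 0.422, 0.357 and 0.434 RPKM in untreated cells. Pxt1 had 0.281, 0.0612, 0.0751 and 0.273 RPKM with LPS/IFNγ, 3.36, 3.45, 3.01 and 2.98 RPKM with IL4 and 3.57, 3.34, 5 and 2.84 RPKM with IGF1, against 0.321, 0.582, 0.338 and 0.299 RPKM in untreated cells. Slc16a14 had 0.0595, 0.13, 0.223 and 0.154 RPKM with LPS/IFNγ, 0.533, 0.762, 0.705 and 0.804 RPKM with IL4 and 0.769, 0.913, 0.696 and 0.658 RPKM with IGF1, against 0.231, 0.403, 0.465 and 0.253 RPKM in untreated cells. These last 3 are low throughout untreated cells and reach 0.533 RPKM or more in every IL4 and IGF1 library.

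The rule did not use the insulin libraries, but it did use the untreated libraries they are set against, and both come from the same 4 preparations. The comparison asks whether a hormone with a receptor related to that of IGF1 moved the same genes. The median change of the members from untreated was 0.04 at 10 ng/mL insulin (range -0.16 to 0.20) and 0.00 at 100 ng/mL (range -0.69 to 0.27), next to 0.02 and 0.01 over all genes. limma called none of the 68 members at 10 ng/mL (lowest Benjamini-Hochberg adjusted p 0.9995) and none at 100 ng/mL (lowest adjusted p 0.9999). Over all genes it called none of 13055 and none of 13108, a background of 0% in both. At an unadjusted p under 0.05, 2 members and 174 genes passed at 10 ng/mL, and 2 members and 321 genes at 100 ng/mL. A fit blocked by preparation called none at either dose, and 3 members and 632 genes passed at 10 ng/mL and 5 members and 1030 genes at 100 ng/mL at that unadjusted p.

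The 95% interval of the insulin effect lay within a 1.5-fold change in either direction for 63 of 68 members at 10 ng/mL and for 62 at 100 ng/mL, with a median half-width of 0.22 and 0.23 on the log2 scale. Over all genes tested it did so for 70.9% at 10 ng/mL and 71% at 100 ng/mL. The 2 shares are unlike. Members had to reach 0.5 RPKM untreated and to have untreated libraries clear of the treated ones, which favours narrow intervals. Genes tested needed only 0.1 RPKM in 4 libraries, so nothing is read from the difference. Havcr2 had a change of -0.04 (95% interval -0.42 to 0.34) at 10 ng/mL and 0.06 (-0.32 to 0.43) at 100 ng/mL, with 0.426, 0.654, 0.483 and 0.502 RPKM at 10 ng/mL and 0.418, 0.612, 0.608 and 0.605 RPKM at 100 ng/mL.

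Cnr2 was the member whose insulin libraries stood apart from untreated at both doses. It held 18.02, 19.4, 19.98 and 19.5 RPKM in untreated cells, 20.4, 21.3, 20.9 and 21.3 RPKM at 10 ng/mL insulin and 21.3, 20.2, 21.6 and 21.8 RPKM at 100 ng/mL. The change was 0.13 ± 0.05 (SE) at 10 ng/mL and 0.14 ± 0.05 at 100 ng/mL, and the limma adjusted p were 0.9995 and 0.9999, so it did not hold up against the number of genes tested. Its IL4 libraries held 28.1, 36.8, 39.4 and 34.5 RPKM. Wdfy2 stood apart at 10 ng/mL only. Libraries of insulin at 10 ng/mL all above or all below the untreated ones were found in these 2 of 68 members and in 0.915% of 10487 genes, and at 100 ng/mL in 1 of 68 members (Cnr2) and 1.82% of genes.

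Insulin at 100 ng/mL was also set against insulin at 10 ng/mL, a contrast that shares no library with the rule. No member was called by limma (lowest adjusted p 0.9999), none passed at an unadjusted p under 0.05, and 0% of 13112 genes was called, with 565 genes at an unadjusted p under 0.05. With preparation as a block, 1 member and 1039 genes passed at that unadjusted p and none was called. The members' changes lay between -0.59 and 0.16, and the 95% interval was within a 1.5-fold change for 61 of 68 members and for 69.4% of all genes tested. The genes tested include many of lower level than the rule allowed, so nothing is read from that difference either. Libraries of both doses overlapped in 67 of 68 members, the exception being Wdfy2, and libraries were apart in 1.99% of all genes. Without the library of preparation 11 at 10 ng/mL insulin, 86 genes and none of the members were called. Across the 8 insulin libraries the SD of log2(RPKM + 0.1) had a median of 0.13 over the members and 0.15 over all genes. It was lowest in Cnr2 (0.04) and highest in Gm20186 (0.92).

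**Figure D4:**
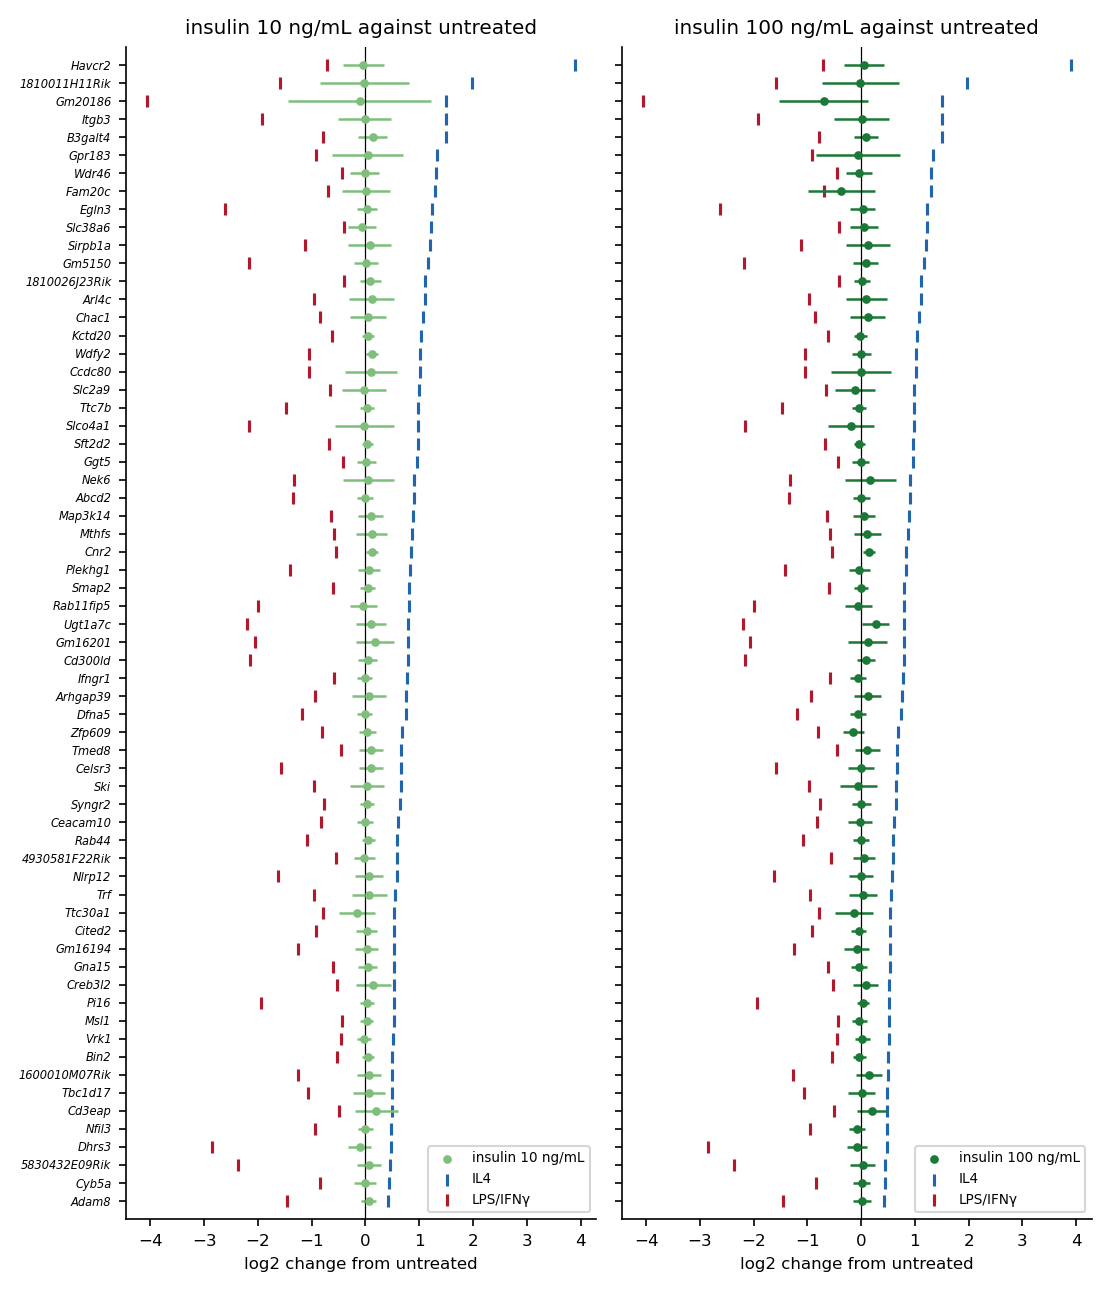
Points and horizontal lines give the limma estimate and 95% interval of the change from untreated at insulin 10 ng/mL (left) and 100 ng/mL (right) for 64 of the 68 members, in log2(RPKM + 0.1). Red ticks mark the LPS/IFNγ change and blue ticks the IL4 change of the same gene. Most intervals lie around 0 between the ticks, with Cd3eap reaching the blue tick at 10 ng/mL and Fam20c the red one at 100 ng/mL, and the widest intervals belong to Gm20186. At both doses the interval of Cd3eap reached the smaller of its IL4 and IGF1 changes.

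The position of the members beyond the insulin libraries was a further description. All 4 IL4 and all 4 IGF1 libraries lay above all 8 insulin libraries in 56 of 68 members (2.21% of 10487 genes), and all 4 LPS/IFNγ libraries lay below all 8 in 64 (37.5% of genes). Both held in 53 members (0.925% of genes). As the IL4, IGF1 and LPS/IFNγ libraries had chosen the members, nothing is read from these shares. The 15 members that did not lie beyond included 1600010M07Rik, 4930581F22Rik, Ccdc80, Cd3eap, Creb3l2, Fam20c, Gm20186, Gpr183, Nek6, Syngr2, Tbc1d17, Trf, Ttc30a1 and Ugt1a7c.

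IGF1 was compared with IL4 over the same members. The rule asked for a change of at least 0.4 with each of them, which leaves out genes raised by 1 alone, so the values of this contrast describe the members and no more. The difference of the group means, IGF1 minus IL4, had a median of 0.00 over the members and ranged between -0.17 (4930581F22Rik) and 0.18 (B3galt4). IGF1 and IL4 libraries overlapped in 68 of 68 members, and stood apart in 0.448% of all 10487 genes. limma called none of the 68 members (lowest adjusted p 1) and 0% of 13080 genes, and 0 members and 125 genes passed at an unadjusted p under 0.05. With preparation as a block 1 gene, not a member, was called, and 2 members and 458 genes passed at an unadjusted p under 0.05. The 95% interval lay within a 1.5-fold change for 61 of the 68 members and for 65.5% of all genes tested, which include genes of lower level. The 7 wider ones belonged to 1810011H11Rik, Ccdc80, Fam20c, Gm16201, Gm20186, Gpr183 and Syngr2.

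Differences were also taken within each preparation. The median absolute difference over the members, in log2 units, was 0.07 in preparation 6, 0.08 in preparation 9, 0.07 in preparation 10 and 0.07 in preparation 11 between IGF1 and IL4, next to 0.11, 0.11, 0.08 and 0.09 over all genes. Between insulin at 100 and at 10 ng/mL it was 0.08, 0.12, 0.08 and 0.08, next to 0.12, 0.15, 0.11 and 0.09 over all genes. In preparation 9, 55 of 68 members were lower with IGF1 than with IL4, and in preparation 6, 49 were higher, so the sign was not kept across preparations. For Havcr2 the difference was -0.08 (95% interval -0.43 to 0.28).

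The scaling of the libraries bore on the LPS/IFNγ side. RPKM expresses each gene as a share of the reads of its library, and over all genes the LPS/IFNγ libraries lay 0.25 below untreated. After median-of-ratios scaling, which sets the median gene to no change, that shift was -0.01, and the members' median was -0.70 with LPS/IFNγ, 0.75 with IL4 and 0.76 with IGF1. The rule was then met by 37 genes, of which 36 were members. Of the 32 that did not, 20 had an LPS/IFNγ change above -0.4, among them Wdr46, Slc38a6, Ggt5, Ifngr1, Cnr2, Msl1, Smap2, Bin2 and Kctd20. A further 5 (among them 1600010M07Rik, 5830432E09Rik, Adam8 and Cyb5a) fell short with IL4 or IGF1, and 7 (Arl4c, Ccdc80, Fam20c, Gm20186, Gpr183, Havcr2 and Ttc30a1) lost only the separation of their libraries. Under this scaling limma called 1243 genes lower and 1527 higher with LPS/IFNγ, so 44.9% of its calls were lower, against 2322 lower and 1065 higher (68.6% lower) as deposited. Members called lower numbered 38 after this scaling and 53 as deposited.

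**Figure D5:**
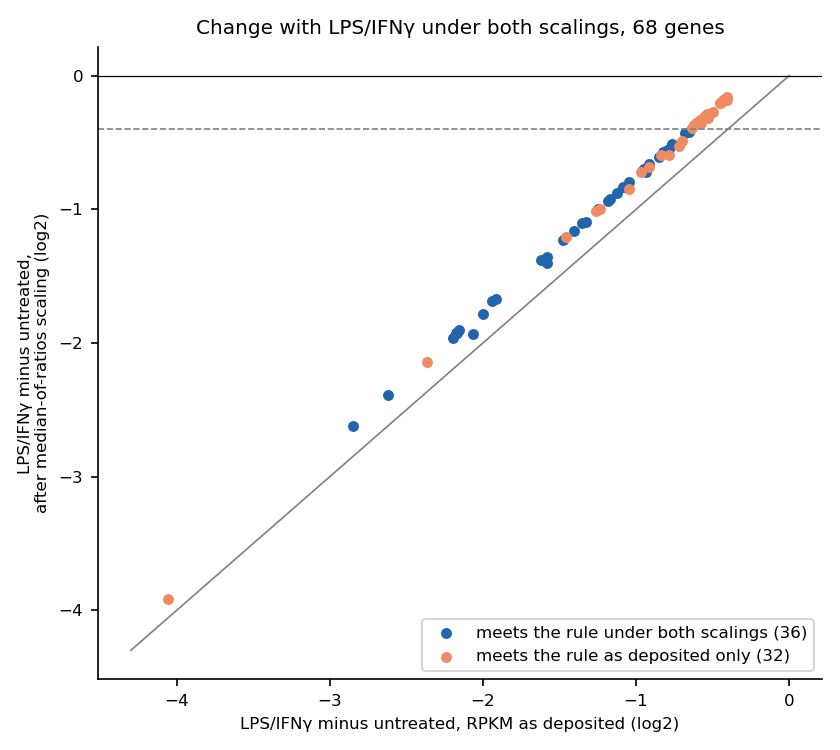
Each point is 1 of the 68 genes, with its LPS/IFNγ change from the RPKM as deposited (horizontal axis) and after median-of-ratios scaling (vertical axis), both in log2. The diagonal marks equal values and the dashed line the threshold of -0.4. The 36 blue genes met the rule under both scalings and the 32 orange genes as deposited only.

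Gene lists put the members beside their pathways. The lists had been chosen with earlier results of these data known. Of all genes tested, 1.62% were higher with IL4, 1.57% were higher with IGF1 and 17.8% were lower with LPS/IFNγ, where a further 1065 of 13062 were higher. The LPS/IFNγ counts of the lists are from the RPKM as deposited and were not recomputed after median-of-ratios scaling. Of the IL4/STAT6 list, 14 of 29 genes tested were higher with IL4 and 16 of 30 with IGF1, and none was lower, with a median change of 1.00 and 1.13 beside 0.02 and 0.02 over all genes. With LPS/IFNγ, 10 of 25 were higher and 2 were lower, Havcr2 and Ccl17, a chemokine of alternative activation that was under 0.5 RPKM in untreated cells. Havcr2 was the 1 member in this list, and the rule had fixed its directions. Retnla, a secreted marker of alternative activation, averaged 9.06 RPKM with IL4 and 8.505 RPKM with IGF1, against 0.1197 RPKM in untreated cells, and lay below the level the rule required.

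Of the phagocytic and inhibitory receptors, 5 of 26 were higher with IL4 and the same number with IGF1, namely Havcr2, Cd300ld, Cd300lf, Clec7a and Fcgr2b in both. With LPS/IFNγ, 9 of 28 were higher and 8 lower. Cd300lf and Clec7a were higher there, by 1.09 and 1.52, while Cd300ld (-2.15) and Havcr2 (-0.72) were lower. Cd300ld and Havcr2 were the 2 members in this list, and the rule had fixed their directions, so nothing is read from that contrast. The lists of chemotactic receptors, leukotriene and prostaglandin genes, glycolysis and glycogen, neutrophil maturation and granules, and PI3K, AKT and FOXO genes held no member. In glycolysis and glycogen, 13 of 21 genes were lower and 3 higher with LPS/IFNγ, with a median change of -0.72 beside -0.22 over all genes, and 1, Hk3, was higher with IL4. In neutrophil maturation and granules, 7 of 26 were lower with LPS/IFNγ and none was called with IL4 or IGF1.

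Promoter windows of 250 bases before to 50 bases after the transcript start were found in RefSeq (GRCm38.p6) for 50 of the 68 members. They were searched on both strands for short sequences that the factors downstream of these signals bind. TTCNNNNGAA, the spacing that STAT6 favours, was present in 5 members (10%), against 8.01% of the 27025 genes in the table. TTCNNNGAA was present in 3 members (6%), against 9.55% of genes. GAAANNGAAA was present in 4 members (8%), against 3.99%, and GGGANNNNCC, an NF-κB type sequence, in 10 members (20%), against 22.9%. GAGGAAGT was in 2 members (4%), against 3.69%, and TTGNNNCAA, a C/EBP type sequence, in 4 (8%), against 6.6%. The 4 members with GAAANNGAAA included Sirpb1a and Gm5150, whose windows were 87.5% identical. No test was run on these shares, and a match describes these letters only. Matches of different sequences overlapped in Cd300ld (GAGGAAGT and GGGANNNNCC) and in Dhrs3 (GAAANNGAAA and TTCNNNNGAA).

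The stretches below hold STAT type matches in 5 members, and are shown because STAT6, which IL4 activates, binds such sequences. Capitals mark the match, and each stretch runs 5′ to 3′ on the strand of its gene, with 30 bases on either side (Dhrs3, chr4:144892928-144892997; Chac1, chr2:119350996-119351065; Vrk1, chr12:106030645-106030714; Cd3eap, chr7:19359607-19359676; Nlrp12, chr7:3249880-3249948). Dhrs3, Chac1 and Vrk1 are on the plus strand, and Cd3eap and Nlrp12 on the minus strand.
Dhrs3: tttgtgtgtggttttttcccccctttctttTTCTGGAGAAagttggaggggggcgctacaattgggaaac
Chac1: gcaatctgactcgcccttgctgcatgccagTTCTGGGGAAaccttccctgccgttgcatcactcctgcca
Vrk1: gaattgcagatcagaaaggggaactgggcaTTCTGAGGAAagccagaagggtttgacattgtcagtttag
Cd3eap: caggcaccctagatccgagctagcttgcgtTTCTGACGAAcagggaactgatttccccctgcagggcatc
Nlrp12: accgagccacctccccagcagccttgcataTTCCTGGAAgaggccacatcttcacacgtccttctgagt
Their IL4 changes were 0.48, 1.07, 0.51, 0.48 and 0.58, in the order printed. 4930581F22Rik held TTCNNNNGAA and Sirpb1a TTCNNNGAA as well, with IL4 changes of 0.59 and 1.198.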

How the data were processed

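RNA of 24 bulk libraries was sequenced. The authors trimmed the reads, mapped them to the mouse genome (GRCm38) in CLC Genomics Workbench and deposited RPKM values per gene and library, and bcl2fastq 2.17.1.4 stands in the submitters' processing notes. Since RPKM is relative to all mapped reads, a shift of many genes moves every value. Members were found by the rule on log2(RPKM + 0.1). Comparisons of 4 against 4 libraries used limma 3.58.1 (trend and robust settings, R 4.3.3) on log2(RPKM + 0.1), for genes with at least 0.1 RPKM in 4 of the 8 libraries. Calls required a change of at least 1.5-fold and an adjusted p (Benjamini-Hochberg, over all genes tested) under 0.05. The code was tested on simulated data. Tables were handled with Python 3.11.15 and pandas 2.3.3.

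The number of each library came from the file headers. Deviations from the group means of same-numbered libraries correlated in all 60 pairs (r = 0.182 to 0.683, median 0.356), against a median of -0.106 in 180 other pairs, so the numbers pair the libraries. The labels do not say whether a number is 1 animal, and p-values measure only the spread between these libraries.

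Full values were given for the 10 members with the largest IL4 change, the 10 with the lowest LPS/IFNγ change, the 6 with the highest untreated mean, the 3 on either side of each threshold and members of a list, and genes named with values beyond these were chosen after their values were seen. A few members count in the totals but are not reported here by name or drawn in the plots with gene labels. The members and lists were chosen with earlier results of these data known. Positions came from GENCODE M21 and promoters from RefSeq. Alternatives were other pseudocounts, filters, scalings, thresholds, a replicate block, 1 fit over all libraries, and each library left out.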

Additional observations from a re-analysis of the deposited data

Results flagged for a closer look

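In 12 of 174 groups of 4 libraries, over the 29 members given in full, 1 library lay far from the other 3, by Dixon's critical value for the gap over the range. That is 6.9% of groups, and chance gives about 1 in 20. Preparation 10 held 7 of the 12.

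With IL4, B3galt4 had 6.57 RPKM in preparation 10 (others 5.29 to 5.42) and Slco4a1 had 19.4 RPKM in preparation 10 (others 24.7 to 25.7). With IGF1, 1810011H11Rik had 5.77 RPKM in preparation 10 (others 2.72 to 3.23), 1810026J23Rik 15 RPKM in preparation 10 (others 12.4 to 12.6) and Bin2 182 RPKM in preparation 10 (others 149 to 154), while Gm20186 had 17.2 RPKM in preparation 9 (others 11.2 to 11.5).

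With LPS/IFNγ, Egln3 had 0.645 RPKM in preparation 6 (others 1.19 to 1.28), Gpr183 had 0.58 RPKM in preparation 10 (others 1.23 to 1.33) and Itgb3 had 2.93 RPKM in preparation 10 (others 4.35 to 4.59). With insulin at 10 ng/mL, Cd300ld had 43.4 RPKM in preparation 6 (others 52.1 to 53.9) and Gm20186 had 12.6 RPKM in preparation 9 (others 2 to 3.54). With insulin at 100 ng/mL, Havcr2 had 0.418 RPKM in preparation 6 (others 0.605 to 0.612).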

How the results depend on the processing

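The number of genes that met the rule was 68 and moved to 37 under median-of-ratios scaling, 36 with thresholds of 1.5-fold, 168 with no change threshold and 113 with no separation of libraries required. It was 49 with a pseudocount of 1 and 69 with 0.01, 59 at an untreated mean of at least 1 RPKM, 65 to 74 with each library left out, and 74 to 79 with each preparation left out, which was chosen after seeing the data. With a pseudocount of 1 the members' median change was -0.71 with LPS/IFNγ, 0.64 with IL4 and 0.66 with IGF1, and under median-of-ratios scaling -0.70 with LPS/IFNγ. A larger pseudocount shrinks the change of low genes by construction. With each library left out, the medians were -0.99 to -0.88 with LPS/IFNγ, 0.72 to 0.84 with IL4, 0.74 to 0.82 with IGF1, 0.01 to 0.05 at 10 ng/mL insulin and -0.01 to 0.02 at 100 ng/mL. Members called were then 49 to 54 with LPS/IFNγ, 25 to 40 with IL4 (25 without the IL4 library of preparation 9), 30 to 38 with IGF1 and 0 in both insulin comparisons, between the doses and between IGF1 and IL4. The count beyond the insulin libraries was 53 to 56.

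With the preparation as a replicate block, limma called 53 members with LPS/IFNγ, 44 with IL4, 47 with IGF1 and 0 in the other 4 comparisons. Over all genes the block called 345 with IL4 (218 without it) and 356 with IGF1 (213 without it). Genes called with LPS/IFNγ were 3387, 2183 with a pseudocount of 1 and 6407 with no fold threshold. With IL4, 118 genes were called without the library of preparation 9. At 100 ng/mL insulin against untreated, 1 gene, not a member, was called with a pseudocount of 0.01. For the 29 members given in full, 1347 of 1469 alternative values kept direction and call, 93 lost the call, 29 gained it and 0 reversed. Depth limits the low members most: Gm16201 had 4 reads in 1 library.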
